A study of Mus musculus with 14 samples.

Results

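The genes described here are the sensors of the mammalian unfolded protein response, the proteases that release one class of them, and Xbp1. They are 10 genes chosen by name: Ern1 and Xbp1, the eIF2alpha kinases Eif2ak3, Eif2ak1, Eif2ak2 and Eif2ak4, the transcription factors Atf6 and Atf6b, and the proteases Mbtps1 and Mbtps2. The count files name 24411 genes, of which 9644 had enough reads to be tested, and all 10 of the chosen genes were among those tested. In GENCODE M21 (mm10) the genes lie on 8 chromosomes: Xbp1 at chr11:5520659-5525893, plus strand, and Ern1 at chr11:106394650-106487852, minus strand; Eif2ak3 at chr6:70844515-70905245, Eif2ak1 at chr5:143817788-143904251 and Eif2ak4 at chr2:118388618-118475234, all plus, and Eif2ak2 at chr17:78852564-78882573, minus; Atf6 at chr1:170704674-170867771, minus, and Atf6b at chr17:34647146-34655074, plus; Mbtps1 at chr8:119508156-119558735 and Mbtps2 at chrX:157535371-157598715, both minus.

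RNA was measured in livers of male littermate mice aged 5 to 7 months. Every mouse carried Rbbp5 (flox/flox), so the controls, called WT, were floxed animals without Alb-CRE, and the LKO mice carried Alb-CRE (+/-). Alb-CRE expresses the recombinase from the albumin promoter, which is active in hepatocytes, so other liver cells of an LKO mouse are not its intended target. Rbbp5 encodes a core subunit of the histone H3 lysine 4 methyltransferase complexes; the sample labels spell the knockout RRBP5 LKO. Mice of both genotypes received tunicamycin at 0.05 mg/kg by intraperitoneal injection, or the vehicle alone, which was 500 µl of 3% DMSO in PBS. Mice were injected from 9 to 10 am, and the liver was collected 8 hours afterwards. WT mice gave 3 libraries per treatment and LKO mice gave 4. LKO vehicle libraries 3 and 4 differed by about the sampling noise of their reads, with a chi-square of 1.12 per degree of freedom against 3.05 to 25.5 for the other 17 pairs within groups. WT tunicamycin 3 stood apart from its group, at 25.1 and 25.5 against samples 1 and 2, which differed by 6.13 from each other, and LKO vehicle 2 gave the next highest values, 12.6 to 16.4. Without WT tunicamycin 3, the genes called for tunicamycin in WT went from 35 to 615. The reads of LKO vehicle 3 and 4 were added up and treated as 1 sample, giving 13 samples in all. The labels do not tie each library to a mouse, so the p-values measure the spread between these samples.

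Tunicamycin blocks N-linked glycosylation, and unglycosylated proteins misfold in the endoplasmic reticulum (ER). The response has 3 membrane sensors. IRE1alpha, encoded by Ern1, is a kinase and endonuclease that cuts Xbp1 mRNA, and the rejoined mRNA encodes the active transcription factor XBP1s. PERK, encoded by Eif2ak3, phosphorylates the translation factor eIF2alpha, which lowers protein synthesis and favours translation of ATF4. ATF6 travels to the Golgi, where site-1 protease (Mbtps1) and site-2 protease (Mbtps2) cut it and free its transcription factor domain; ATF6B is its paralogue. The other eIF2alpha kinases answer other signals: HRI (Eif2ak1) low haem and mitochondrial stress, PKR (Eif2ak2) double-stranded RNA, and GCN2 (Eif2ak4) amino acid shortage. In liver this network is known for handling the heavy load of secreted proteins. These sensors are switched on largely by protein-level events, which RNA counts do not measure.

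The sequence that IRE1alpha acts on is shown first, because it is the step in Xbp1 that gene counts cannot see. In the GENCODE M21 annotation of mm10, a coding transcript of Xbp1 carries it on the plus strand of chromosome 11, in exon 4 of 5, within the coding sequence. Its window is chr11:5524249-5524334, and capitals mark the 7-base loops (CCGCAGC and CTGCAGC) in which the cuts fall. The second line is the same window after the 26 bases at chr11:5524279-5524304 are taken out.
Xbp1 before the cut: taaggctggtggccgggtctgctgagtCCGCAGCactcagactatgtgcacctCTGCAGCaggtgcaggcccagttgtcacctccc
Xbp1 after rejoining: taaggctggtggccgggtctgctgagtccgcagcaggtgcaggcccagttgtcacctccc
The reading frame holds 267 codons before the removal and 371 after it, computed from that transcript. A search for pairs of such loops (CNGCAGN) whose cuts lie 26 bases apart found 1 other pair, in exon 1, and its removal would leave 73 codons. Of the 4 GENCODE models of Xbp1, 3 hold the 26 bases and 0 hold the joined form. A read of either form counts once for the gene, so the counts below are total Xbp1 RNA and say nothing of how much was spliced.

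The 250 bases before the start site are shown for the 3 genes that carry the IRE1 and PERK branches at ER membrane and nucleus: Xbp1, Ern1 and Eif2ak3. They come from RefSeq on GRCm38.p6, are written in the direction of transcription, and lie at chr11:5520391-5520640 on the plus strand for Xbp1, chr11:106487797-106488046 on the minus strand for Ern1 and chr6:70844265-70844514 on the plus strand for Eif2ak3. Capitals mark CCAAT or CCACG on either strand.
Xbp1 promoter: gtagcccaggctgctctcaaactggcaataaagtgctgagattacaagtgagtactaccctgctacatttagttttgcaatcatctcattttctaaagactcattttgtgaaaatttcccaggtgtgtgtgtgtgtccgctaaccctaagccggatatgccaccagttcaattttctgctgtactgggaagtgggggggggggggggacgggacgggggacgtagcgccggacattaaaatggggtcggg
Ern1 promoter: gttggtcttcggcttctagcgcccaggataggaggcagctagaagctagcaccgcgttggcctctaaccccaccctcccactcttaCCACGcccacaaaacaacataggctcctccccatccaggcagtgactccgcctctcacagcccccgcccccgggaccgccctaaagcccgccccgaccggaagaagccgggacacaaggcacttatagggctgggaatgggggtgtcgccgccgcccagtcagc
Eif2ak3 promoter: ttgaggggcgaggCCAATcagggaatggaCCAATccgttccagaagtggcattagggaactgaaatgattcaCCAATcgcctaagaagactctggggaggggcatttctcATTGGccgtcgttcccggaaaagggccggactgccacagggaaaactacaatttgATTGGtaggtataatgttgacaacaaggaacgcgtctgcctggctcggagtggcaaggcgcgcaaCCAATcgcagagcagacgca
Eif2ak3 had 6 copies of CCAAT, the box bound by NF-Y, starting at positions -237, -221, -178, -140, -85 and -20 from its start site, and Xbp1 had neither motif in its window. Windows were found for 9 of the 10 genes, all except Atf6. CCAAT stood in the windows of 3 of them (Eif2ak3, Eif2ak1 and Atf6b) and in 33.8% of all 32851 windows of this length. CCACG, the half-site bound by ATF6, stood in 3 (Ern1, Eif2ak1 and Mbtps1) against 28.3% of windows. Both letter strings are parts of the full ER stress element, in which 9 bases of any kind separate them, which was in 0 of the 9 genes' windows and in 0.113% of all windows. The unfolded protein response element TGACGTGG, whose reverse strand contains CCACG, was in 0 and 0.563%, and the C/EBP-ATF element TGATGNAAN in 0 and 3.44%. Each was searched on both strands, and a missing match says only that these letters are not in the window.

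Sequencing gave from 6507018 to 13519421 reads on genes per library. Of these, 72.5 to 75.5% fell on Rn45s, the ribosomal RNA precursor, which left 1704479 to 3551398 reads for all other genes. Levels of a gene are given below as CPM, its reads as a share of the library, with library sizes that include Rn45s and are scaled by TMM. Group levels are the mean ± SD with the number of samples. Rbbp5 was at 5.19 ± 1.17 CPM in WT vehicle, 5.37 ± 0.343 in WT tunicamycin, 2.94 ± 1.13 in LKO vehicle (n = 3 each) and 2.86 ± 0.598 in LKO tunicamycin (n = 4). It was not called in either genotype comparison (edgeR, Benjamini-Hochberg adjusted p 0.330 and 0.105), and LKO vehicle 1, at 4.15 CPM, lay within the range of the WT vehicle samples. Of 8 hepatocyte markers, 7 were abundant, with sums of 20063 to 30674 CPM, and Ass1 had at most 2 reads in any sample.

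Per unit of transcript length, Xbp1 was by far the most abundant of the 10 RNAs. In the deposited FPKM (fragments per unit of transcript length and sequencing depth), its median over the 13 samples was 11.1, with a range from 7.80 to 19.0. Atf6 followed at 2.43, then Eif2ak1 at 1.94, Mbtps1 at 1.28, Ern1 at 1.15 and Eif2ak2 at 1.15. The lower end held Eif2ak3 at 0.633, Mbtps2 at 0.379, Atf6b at 0.377 and Eif2ak4 at 0.166. The ER-resident kinases overlapped in range, with Ern1 at 0.769 to 1.42 FPKM and Eif2ak3 at 0.514 to 0.857. Within each sample, Ern1 lay above Eif2ak3.

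**Figure D1:**
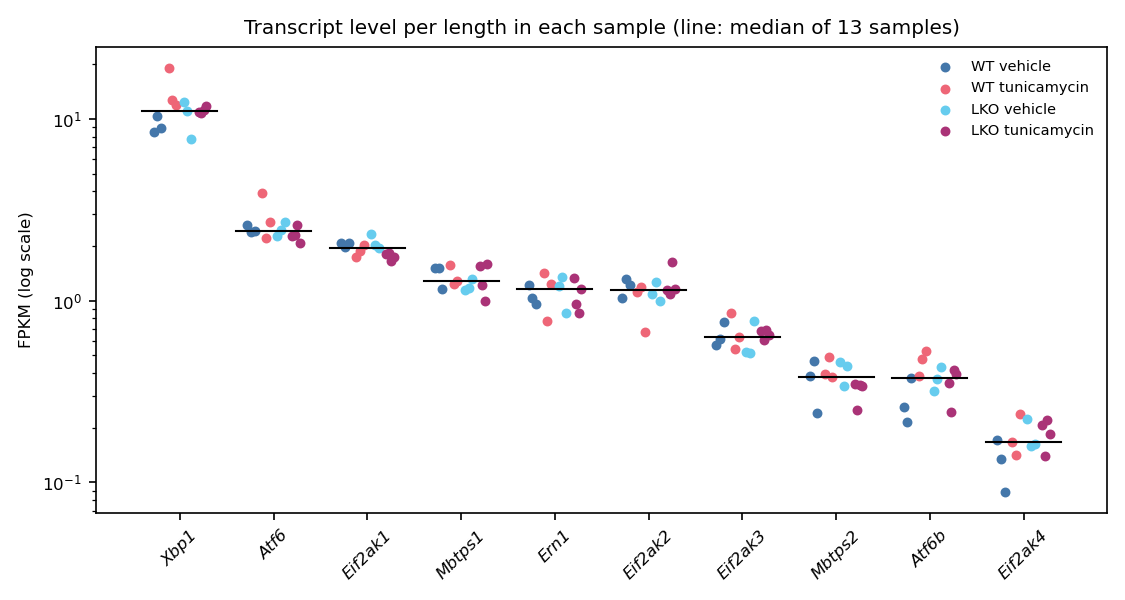
Deposited FPKM of the 10 genes (log axis) in each of the 13 samples, coloured by group, with a line at each gene's median. Xbp1 lies above every other gene in all 13 samples, and Eif2ak4 has the lowest median, 0.166 FPKM.

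Neighbours in that order were often not separable. Ern1 lay above Eif2ak2 in 6 of 13 samples and Mbtps2 above Atf6b in 7 of 13, so those pairs did not differ beyond their spread. Atf6 lay above Eif2ak1 in 12 of 13 and Mbtps1 above Ern1 in 11 of 13, with ranges that overlap. The other neighbours kept their order in 13 of 13 samples. Dividing CPM by the summed exon length of each gene also placed Xbp1 first and Atf6 second, but moved Eif2ak2 from 6 to 3 and Mbtps2 from 8 to 10 in rank. The FPKM of LKO vehicle 2 followed that library's own counts less well than the others did, with r = 0.521 across 4632 genes against 0.801 to 0.956.

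Total Xbp1 RNA rose after tunicamycin in WT liver. It was at 38.2, 47.7 and 40.2 CPM in the WT vehicle samples and at 85.0, 67.3 and 61.3 CPM in the WT tunicamycin samples. The lowest treated sample stood above the highest control. Every WT sample had at least 276 Xbp1 reads. The fitted rise was 0.76 ± 0.16 on the log2 scale (SE; 95% interval 0.43 to 1.09), or 1.69-fold, with an edgeR Benjamini-Hochberg adjusted p of 0.0465. Xbp1 was the 1 gene of the 10 called in this comparison, in which 0.363% of all genes tested were called. The call was near its threshold: it held in 4 of the 13 fits that each left out 1 sample (adjusted p 0.00441 to 0.234). Those were the fits without WT tunicamycin 3, LKO vehicle 1, LKO vehicle 2 or the LKO vehicle 3 and 4 sample; it was lost without any other 1 sample, while the estimate stayed between 0.61 and 0.86. It was also lost with scaling by total counts, at 0.58, and in the FPKM fits, at 0.57 to 0.62.

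In LKO liver the Xbp1 values of the 2 treatments overlapped. They were 52.4, 47.3 and 34.6 CPM with vehicle, the last being the summed sample, and 47.4, 50.5, 47.5 and 50.1 CPM after tunicamycin. The treated samples lay close together, inside the range of their controls. The difference was 0.13 ± 0.15 (log2, SE), with an interval from -0.18 to 0.44 and an edgeR adjusted p of 0.777. With vehicle alone, LKO and WT differed by 0.09 ± 0.16 in log2 (edgeR adjusted p 0.939). After tunicamycin all 4 LKO samples lay below all 3 WT samples, by -0.54 ± 0.14, with an edgeR adjusted p of 0.0876, so this was not called. This comparison and the WT treatment comparison share the 3 WT tunicamycin samples. The difference between the treatment effects of the genotypes was -0.63 ± 0.21 (95% interval -1.08 to -0.18), with an edgeR adjusted p of 0.935. Liver is a mixture of cells, so fewer cells of a type and less RNA per cell cannot be told apart in any of these values.

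**Figure D2:**
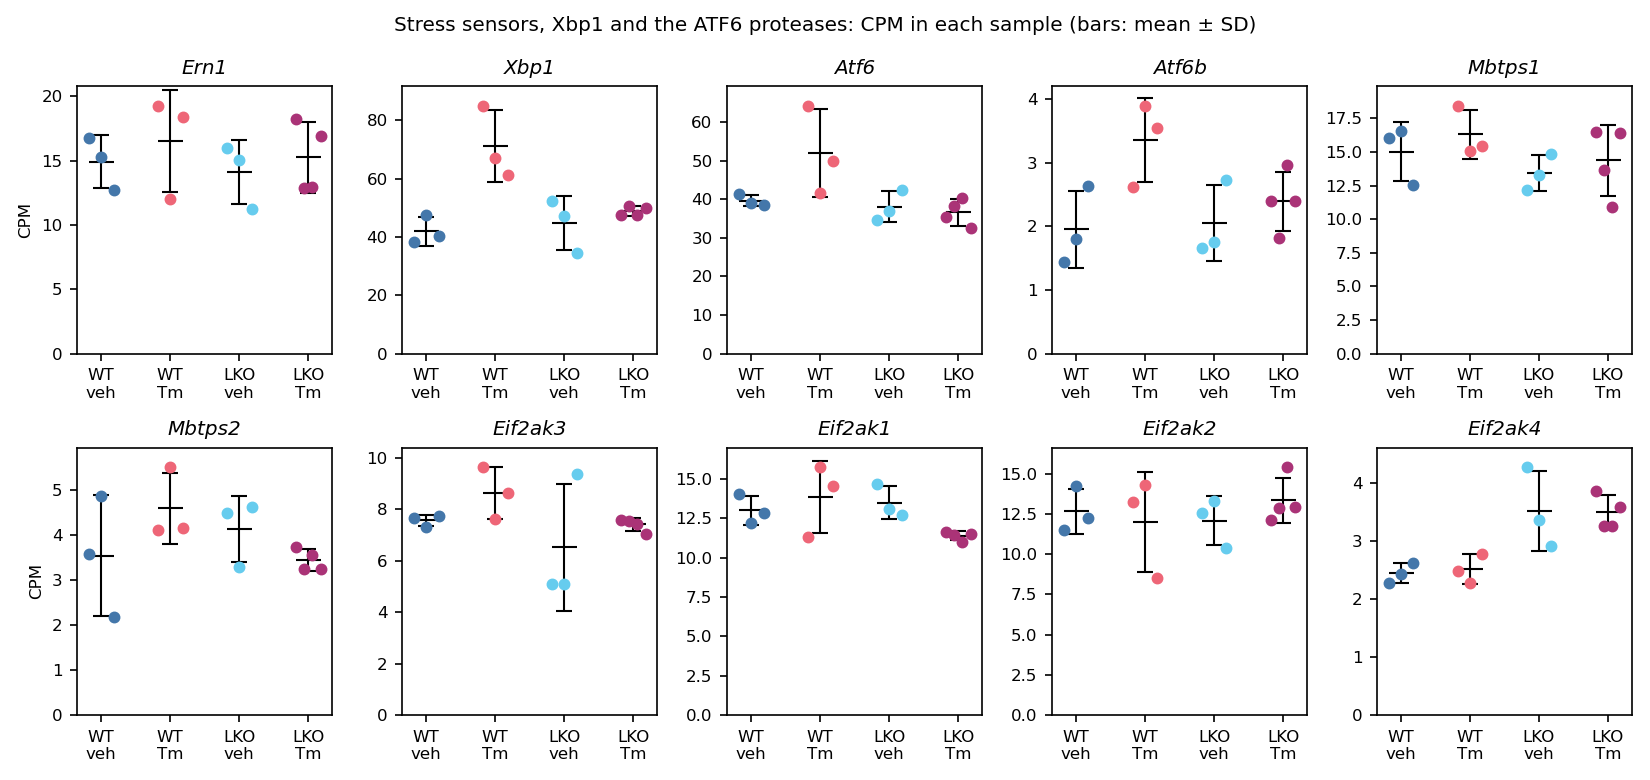
CPM of each of the 10 genes by group, 1 point per sample, with group means and SDs. Xbp1 in WT rises from 38.2 to 47.7 CPM with vehicle to 61.3 to 85.0 CPM with tunicamycin, while the LKO tunicamycin samples stay between 47.4 and 50.5 CPM.

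Ern1, the kinase upstream of Xbp1, was not called in any comparison. Its CPM were 16.8, 15.2 and 12.7 in WT vehicle, 19.3, 12 and 18.4 in WT tunicamycin, 16, 15.04 and 11.3 in LKO vehicle, and 18.3, 12.9, 12.9 and 16.9 in LKO tunicamycin. All 4 groups overlapped each other. The log2 difference of tunicamycin against vehicle was 0.15 ± 0.20 in WT and 0.12 ± 0.18 in LKO. Its 95% intervals over the treatment and genotype comparisons reached as low as -0.51 and as high as 0.57. Changes inside the interval of each comparison were not resolved with these samples.

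Atf6, the sensor that becomes a transcription factor, was not called in any comparison. WT vehicle samples were at 41.3, 39.1 and 38.6 CPM, and WT tunicamycin samples at 64.3, 41.7 and 50.01 CPM. The groups did not overlap in CPM, although WT tunicamycin 2 was only just above the highest control. In the deposited FPKM they overlapped: WT tunicamycin 2, at 2.20, lay below the WT vehicle samples, at 2.38 to 2.62. In LKO liver the values were 34.6, 37.1 and 42.5 CPM with vehicle and 35.4, 38.3, 40.5 and 32.5 CPM with tunicamycin. The log2 difference in WT was 0.39 ± 0.15 (95% interval 0.08 to 0.70, edgeR adjusted p 0.213), and in LKO -0.06 ± 0.14. After tunicamycin, all 4 LKO samples were below all 3 WT samples, by -0.51 ± 0.14, with a 95% interval from -0.79 to -0.22 and an edgeR adjusted p of 0.0882. That passed in 1 of the 13 fits that left out a sample, the one without WT tunicamycin 2 (0.0238). In the deposited FPKM the treated genotypes overlapped, at 2.07 to 2.62 in LKO and 2.20 to 3.93 in WT.

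Its paralogue Atf6b was sparse, with 12 to 46 reads per sample. The CPM were 1.44, 1.79 and 2.62 in WT vehicle and 2.61, 3.89 and 3.55 in WT tunicamycin, which overlap at their edges. LKO samples ranged from 1.66 to 2.73 CPM with vehicle and from 1.82 to 2.96 with tunicamycin. In WT the log2 difference was 0.79 ± 0.30, the largest of the 10 genes in size, but with an edgeR adjusted p of 0.227 it was not called. Its 95% interval ran from 0.14 to 1.43.

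The 2 proteases that cut ATF6 showed no called change. Mbtps1 was at 12.5 to 16.5 CPM in WT vehicle, 15.1 to 18.4 in WT tunicamycin, 12.2 to 14.8 in LKO vehicle and 10.9 to 16.5 in LKO tunicamycin. Mbtps2 was at 3.59, 4.87 and 2.19 CPM in WT vehicle, 4.13, 5.51 and 4.17 in WT tunicamycin, 4.50, 3.29 and 4.63 in LKO vehicle, and 3.73, 3.25, 3.57 and 3.26 in LKO tunicamycin. Here the 4 LKO tunicamycin samples stood below the 3 WT tunicamycin samples, by -0.41 ± 0.24 in log2 (edgeR adjusted p 0.423). The annotation places Yy2 on the same strand, overlapping an exon of Mbtps2, so reads shared by those genes may be split or dropped by the counting.

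Eif2ak3, which encodes PERK, was not called. Its values were 7.66, 7.30 and 7.73 CPM in WT vehicle and 9.63, 7.62 and 8.64 CPM in WT tunicamycin, a log2 difference of 0.20 ± 0.21. In LKO the vehicle samples were uneven, at 5.09, 5.11 and 9.37 CPM, and the tunicamycin samples close together, at 7.59, 7.55, 7.44 and 7.06 CPM. The sample at 9.37 is the sum of libraries 3 and 4. The LKO treatment difference was 0.14 ± 0.19 with all samples and moved between -0.03 and 0.53 when 1 sample was left out. After tunicamycin, LKO samples all lay below WT samples in CPM, by a narrow margin and -0.23 ± 0.20 in log2. In the deposited FPKM they overlapped, at 0.607 to 0.688 in LKO and 0.544 to 0.857 in WT.

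The other 3 eIF2alpha kinases, which answer haem, double-stranded RNA and amino acid signals, were not called either. Eif2ak1 was at 14.7, 13.1 and 12.7 CPM in LKO vehicle and at 11.6, 11.5, 11 and 11.5 CPM in LKO tunicamycin, with no overlap. The log2 difference was -0.24 ± 0.12 (edgeR adjusted p 0.454), which was not called. WT values of Eif2ak1 were 12.2 to 14.01 CPM with vehicle and 11.3 to 15.7 CPM with tunicamycin, and overlapped. Eif2ak2 lay between 8.49 and 15.4 CPM in all 13 samples, with overlap in each comparison and no called difference.

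Eif2ak4, the amino acid sensor, was higher in every LKO sample than in every WT sample, though it was not called. WT vehicle samples were at 2.28, 2.43 and 2.62 CPM and WT tunicamycin samples at 2.48, 2.27 and 2.78 CPM. LKO vehicle samples were at 4.27, 3.36 and 2.91 CPM and LKO tunicamycin samples at 3.86, 3.25, 3.26 and 3.58 CPM. The margin was small, from 2.78 to 2.91 CPM, and the gene had 14 to 49 reads per sample. LKO exceeded WT by 0.49 ± 0.21 in log2 with vehicle (edgeR adjusted p 0.579) and by 0.47 ± 0.21 after tunicamycin (edgeR adjusted p 0.313). In the deposited FPKM the genotypes overlapped, at 0.0889 to 0.237 in WT and 0.140 to 0.224 in LKO. Of all 9644 genes tested, 0.674% had every LKO sample above every WT sample in CPM. Beside these values, the summed CPM of 5 bile duct markers, of which Spp1 and Sox9 had enough reads to be tested, ranged over 8.60 to 11.7 in WT vehicle, 8.49 to 42.5 in WT tunicamycin, 17.4 to 55.2 in LKO vehicle and 35.8 to 111 in LKO tunicamycin. Stellate and fibroblast markers ranged from 67.9 to 111, 93.3 to 128, 113 to 156 and 107 to 166 CPM in the same order. Among the bile duct markers, Spp1 alone reached 105 CPM, while Sox9 reached at most 6.47 CPM. The highest bile duct sums were thus mostly Spp1. The defining duct keratins Krt19 and Krt7 had at most 14 and 6 reads, and Epcam at most 11. The part of these cell types in the Eif2ak4 result was not tested.

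Across the 10 genes, tunicamycin in WT gave positive log2 differences in 9, against 51.7% of all genes, with a median of 0.17 against 0.01 over all genes tested. With scaling by total counts Ern1, Eif2ak1, Eif2ak4 and Mbtps1 turned negative, while the median of all genes moved to -0.177. At an unadjusted p under 0.05, 3 were higher (Xbp1, Atf6 and Atf6b), and 14.8% of all genes passed in either direction. Xbp1 and Atf6 were the 2 genes whose treated samples all lay above the controls in CPM, which was so for 8.63% of all genes. In LKO, edgeR called 0 of the 10, where 0.0311% of all genes were called, and DESeq2 called 0. None reached an unadjusted p under 0.05, which 12.2% of all genes did. The median there was 0.10 against 0.005 over all genes, and 1 gene (Eif2ak1) had treated samples wholly below the controls, against 6.55% of all genes.

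**Figure D3:**
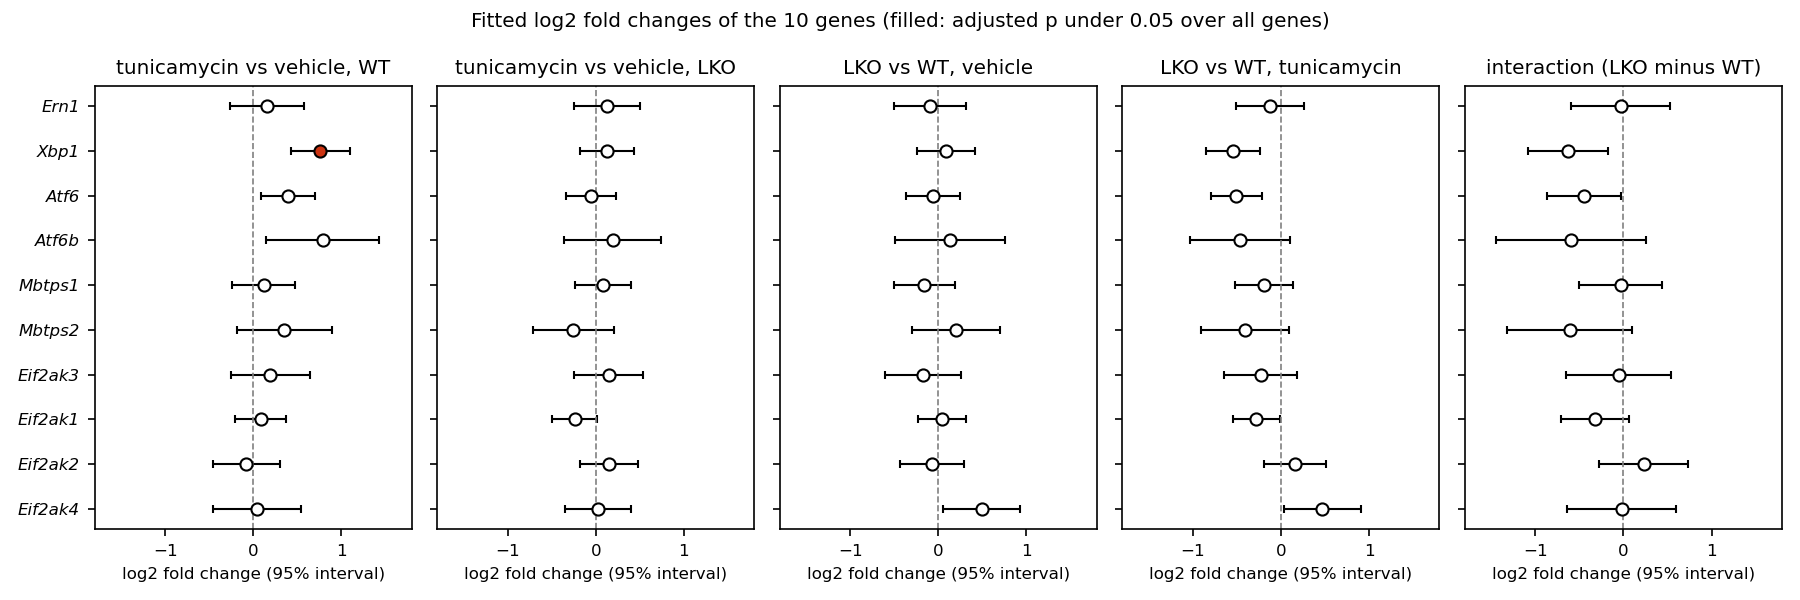
Log2 fold changes of the 10 genes in the treatment and genotype comparisons and the interaction, with 95% intervals from edgeR. Xbp1 in WT, at 0.76 with an interval of 0.43 to 1.09, is the value that passed the adjusted threshold.

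Between genotypes with vehicle, edgeR called 0 of the 10, against 0.0415% of all genes. At an unadjusted p under 0.05, 1 gene (Eif2ak4) was higher, against 8.15% of all genes in either direction, and DESeq2 called 0. Eif2ak4 was also the gene whose LKO samples all lay above the WT samples, as did 7.52% of all genes. The median log2 difference was -0.007 against 0.005 over all genes. After tunicamycin edgeR again called 0, against 0.861% of all genes. At an unadjusted p under 0.05, 3 genes were lower in LKO (Xbp1, Atf6 and Eif2ak1) and 1 was higher (Eif2ak4), against 15.8% of all genes in either direction. DESeq2 called 1, Xbp1, at an adjusted p of 0.0386. Xbp1, Atf6, Eif2ak3 and Mbtps2 had all LKO samples below all WT samples in CPM, which held for 6.58% of all genes. Eif2ak4 had all of them above, which held for 6.34%. The median was -0.25 against -0.01 over all genes. The interaction called 0 of the 10 and 0% of all genes, with 2 of the 10 (Xbp1 and Atf6) at an unadjusted p under 0.05, as were 4.91% of all genes, and 0 called by DESeq2.

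The genes that these sensors act on were described from lists, which were chosen with earlier results of these data known. Of 11 targets of ATF6, 7 rose in WT after tunicamycin and 0 in LKO, where 0.363% and 0.0311% of all genes were called, with medians of 1.27 and 0.26 in log2 against 0.01 and 0.005 over all genes. With vehicle 0 of the 11 were called between genotypes, with 0.0415% of all genes called. After tunicamycin 8 were lower in LKO than in WT, with 0.861% of all genes called and a median of -1.12 against -0.01. The interaction called 0 of the 11, so the treatment effects of the genotypes were not shown to differ. DESeq2 called 10 in WT and 9 between genotypes after tunicamycin, and limma on log2(FPKM + 1) called 0 and 1. Hspa5, the ER chaperone BiP, which holds the sensors inactive, went from 220.0 ± 29.1 to 651 ± 295 CPM in WT (n = 3 each), a log2 rise of 1.57 ± 0.29 (edgeR adjusted p 0.0388). Its samples after tunicamycin were 854, 313 and 786 CPM. In WT, Pdia4, a disulfide isomerase, rose after tunicamycin by 1.63 ± 0.22 (0.00711) and Hyou1, a chaperone of the Hsp110 kind, by 1.10 ± 0.22 (0.0399). After tunicamycin Creld2, a secreted ER stress protein, was at 5.11 ± 2.05 CPM in LKO and 40.7 ± 24.2 in WT, a difference of -3.004 ± 0.44 (0.0102). The adjusted p given for these 4 genes are from edgeR with Benjamini-Hochberg adjustment. Over the 13 fits that left out a sample, the WT calls held in 7 for Hspa5, 10 for Pdia4 and 6 for Hyou1. Those of Hspa5 and Hyou1 were lost in every FPKM fit, and that of Hyou1 also with total count scaling (edgeR adjusted p 0.0552) and with the replicate number as a block (0.0643). The WT call of Pdia4 held in 17 of all 24 alternatives. Those that lost it included limma on log2(FPKM + 1), with or without the filter.

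**Figure D4:**
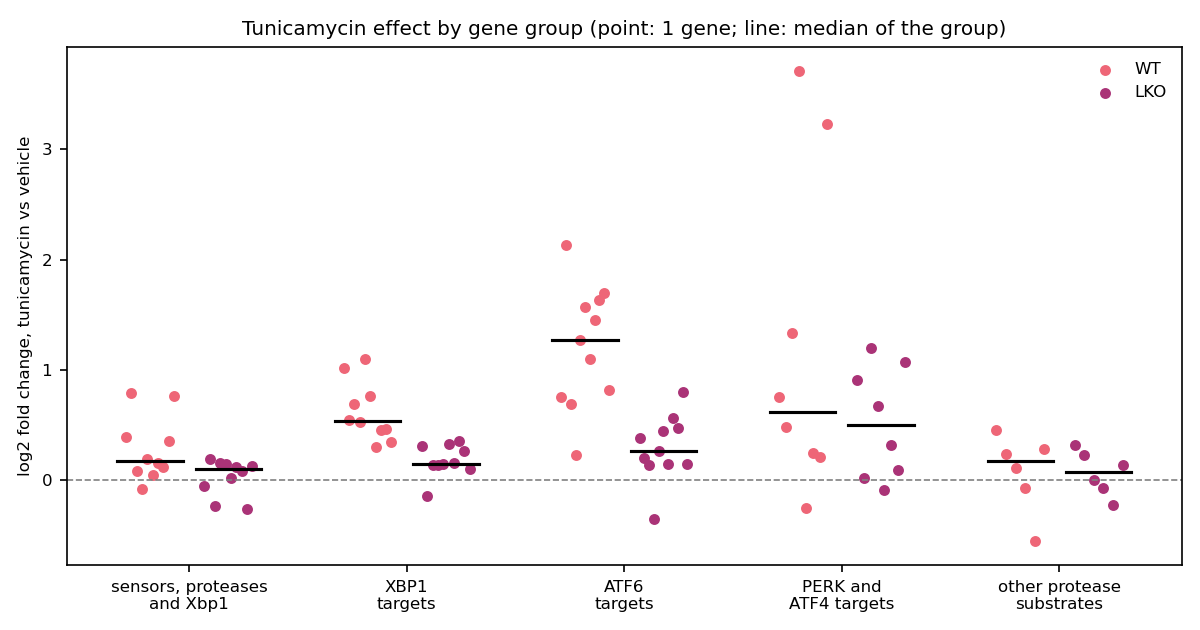
Log2 fold changes of the 10 genes and of 4 lists of pathway genes after tunicamycin in WT and in LKO liver, 1 point per gene with the median of each list. The ATF6 targets have medians of 1.27 in WT and 0.26 in LKO, and the 10 genes themselves have medians of 0.17 and 0.10.

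Of 10 targets of XBP1, 2 rose in WT (Dnajb11 and Hyou1) and 0 in LKO, with the same shares of all genes called as above and medians of 0.54 and 0.15 against 0.01 and 0.005 over all genes. Between genotypes after tunicamycin 4 were lower, with 0.861% of all genes called, and the interaction called 0. The WT count ranged from 0 to 6 with 1 sample left out and was 6 with DESeq2 and 0 with limma on log2(FPKM + 1); the 4 became 5 and 0 there. Dnajb11, a co-chaperone of BiP, went from 21.9 ± 2.15 to 44.5 ± 4.18 CPM in WT, by 1.02 ± 0.14 (edgeR adjusted p 0.00711). Among 8 tested of 10 PERK and ATF4 targets, only Ddit3 was called in WT, at 3.71 ± 0.72 (edgeR adjusted p 0.0399), with 0.363% of all genes called. Ddit3, which encodes CHOP, was at 26.3, 1.30 and 20.4 CPM in WT tunicamycin 1, 2 and 3 and at 0.641 to 1.89 CPM in WT vehicle, so sample 2 lay within the control range, and the call held in 5 of the 13 fits that left out a sample. It was lost on FPKM, and DESeq2 gave Ddit3 no adjusted p in this comparison. Between genotypes after tunicamycin 2 were lower in LKO, with 0.861% of all genes called. Ddit3 differed by -4.02 ± 0.66 (edgeR adjusted p 0.0149). Trib3, a pseudokinase target of CHOP, differed by -2.91 ± 0.59 (edgeR adjusted p 0.0332), at 0.831 ± 0.378 CPM in LKO and 6.17 ± 4.79 in WT. Samples overlapped for both. With 1 sample left out, the Ddit3 call held in 11 of 13 fits and that of Trib3 in 6. With limma on log2(FPKM + 1), 0 of the list were called there. The list medians for tunicamycin against vehicle were 0.62 in WT and 0.50 in LKO.

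Another list held partners of IRE1, the RNA ligase that rejoins cut Xbp1 mRNA and the ubiquitin ligase complex HRD1. It shares Hspa5 and Sel1l with the ATF6 targets, and Dnajb9 and Pdia6 with the XBP1 targets. The ATF6 and XBP1 targets share Hyou1 and Dnajc3, and Dnajc3 is also among the eIF2alpha phosphatase and kinase partners. A call of a shared gene thus counts in more than 1 list. Of 10 tested of the 11 genes in the IRE1 list, 2 rose in WT (Hspa5 and Sel1l), where 0.363% of all genes were called. After tunicamycin 4 were lower in LKO than in WT, with 0.861% of all genes called: Hspa5, Syvn1, Sel1l and Dnajb9. With 1 sample left out, the 2 ranged from 0 to 3 and the 4 from 0 to 4. Both counts were 0 with limma on log2(FPKM + 1), and DESeq2 called 4 and 4. Syvn1, the ubiquitin ligase HRD1, was at 12.6 ± 3.42 CPM in LKO and 45.8 ± 24.1 in WT, and Sel1l, its partner, at 71.0 ± 7.35 and 123 ± 32.0. The eIF2alpha phosphatase and kinase partners had 1 call of 9 tested, Dnajc3, the PERK inhibitor P58IPK, lower in LKO after tunicamycin by -0.67 ± 0.15 (edgeR adjusted p 0.0498). The ATF6 transport list had 1 of 13, Sec23b, a COPII coat protein, by -0.79 ± 0.17 (0.0441, edgeR). Both calls fell in the comparison where 0.861% of all genes were called, and both were near the threshold. With 1 sample left out, Dnajc3 held in 4 of 13 fits and Sec23b in 5, and both were lost on FPKM. None of the 8 eIF2 and eIF2B subunits, the 6 tested other substrates of the proteases, the 5 tested RNAs cut by IRE1 or the 10 tested interferon genes was called by edgeR or DESeq2 in any comparison. In WT after tunicamycin 1 gene of each list had an unadjusted p under 0.05, as did 14.8% of all genes. The lists were described by their counts and medians, without a test of each list. Calls in WT rest on few samples: leaving out WT vehicle 1, WT vehicle 2 or WT tunicamycin 1 left 0 of the ATF6 targets and 0 of the XBP1 targets called, and leaving out WT tunicamycin 1 left 0 of either in the genotype comparison after tunicamycin.

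Within the WT tunicamycin group the 3 samples were not ordered alike in all genes. Over all genes sample 3 stood apart, as given above. Among the 10 genes, Hspa5 and Ddit3, sample 2 was the lowest for Hspa5 (313 CPM), Ddit3 (1.30), Atf6 (41.7), Ern1 (12), Eif2ak3 (7.62), Mbtps1 (15.1) and Eif2ak4 (2.27). It was the highest for Atf6b (3.89), Mbtps2 (5.51), Eif2ak1 (15.7) and Eif2ak2 (14.3). Xbp1 in sample 2, at 67.3 CPM, was above sample 3 at 61.3. Over the 13 samples, the RNAs with log2 CPM most like each gene, out of 2211 whose mean log2 CPM reached 4, were found by Pearson correlation. For Xbp1 they were Morf4l2 (r = 0.88), Taf15 (0.88) and Edem1 (0.88), the last a factor that helps dispose of misfolded glycoproteins. For Atf6 they were Cebpg (0.91), Eif3c (0.90) and Atp2a2 (0.89), the ER calcium pump. For Eif2ak3 they were Igfbp1 (0.92), Trp53inp1 (0.84) and Tmx1 (0.81), and for Ern1 Btaf1 (0.76), Ptbp1 (0.75) and Pdia5 (0.73). These samples share their groups and depth, and the correlations are descriptions of this set.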

How the data were processed

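Liver RNA of 14 libraries was measured. The deposited count files hold STAR read numbers per gene and strand, per the file headers, and the column of reads on the gene's strand was used (99.5 to 99.6% of stranded reads). The deposited FPKM carry the column names of Cufflinks output, per the file headers. Trimmomatic, STAR, Cufflinks and mm10 are named, without versions or roles, in the submitters' processing notes; the annotation is not given in the sources used here. Reads on no gene, 40.8 to 44.7% of uniquely mapped reads, were left out of library sizes. Reads carry no molecular identifiers in these files and are not independent molecules. Of 24352 names among the 24886 FPKM entries, 277 had several entries and were dropped.

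Counts of 13 samples were fitted in R 4.3.3 with edgeR 4.0.16 (TMM, filterByExpr by group, 1 mean per group, quasi-likelihood test). Benjamini-Hochberg adjustment ran over all 9644 genes tested, with calls at an adjusted p under 0.05. The model kept 9 residual degrees of freedom, with a biological coefficient of variation of 0.155. Alternatives used limma 3.58.1 on log2(FPKM + 1 or 0.1) with a mean of at least 0.5 FPKM, DESeq2 1.42.0, other scalings and filters, 14 separate libraries and 1 sample left out at a time. The code was tested on simulated data. Coordinates and exon lengths come from GENCODE M21 on mm10, and promoters from RefSeq. From each pathway list, the called genes with the smallest adjusted p, at most 4 per list, were named, and from all genes the 3 most correlated with Xbp1, Ern1, Eif2ak3 and Atf6. The 10 genes and the lists were chosen with earlier results of these data known.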

Additional observations from a re-analysis of the deposited data

How the results depend on the processing

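Each of the 50 log2 fold changes of the 10 genes was recomputed under at most 24 alternatives, 1155 values in all. Direction and side of the threshold held in 1058, the sign changed in 79, a call was lost in 14 and gained in 4. Xbp1 in WT was positive in all 24 alternatives and passed in 10. It lost its call with total count scaling (0.58) and on FPKM with a pseudocount of 1 (0.57, also without the filter or without the LKO vehicle 2 column) or 0.1 (0.62), so 0 of the 10 genes were called there. LKO against WT after tunicamycin gained 1 call, Xbp1, with no filter (-0.54) and with DESeq2 (-0.55). Over the 13 fits that left out 1 sample, the 10 genes had 0 to 1 calls in WT and 0 to 1 between genotypes after tunicamycin; the latter was Xbp1 without the LKO vehicle 3 and 4 sample or Atf6 without WT tunicamycin 2. The values of the pathway genes named kept their sign in every alternative, with calls in 8 to 22 of at most 24.

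Counts of all genes called moved more. For tunicamycin in WT, 35 (28 higher) became 148 (33 higher) with total count scaling, 289 with no filter, 153 with DESeq2, 56 with 14 libraries, 53 ignoring strand, 2, 8 and 0 on FPKM (pseudocount 1, 0.1, and 1 without filter), 4 without the LKO vehicle 2 FPKM column and 0 to 615 with 1 sample left out (615 without WT tunicamycin 3, and 0 when WT tunicamycin 1 or either of the first 2 WT vehicle samples was dropped). For tunicamycin in LKO, 3 became 153 with no filter, 46 with DESeq2, 5 with 14 libraries, 0, 0 and 1 on FPKM, and 0 to 67 (67 without WT tunicamycin 3). For LKO against WT with vehicle, 4 became 8 with total count scaling, 84, 15, 12, 0, 0 and 0 in the same order, 1 without that column, and 0 to 17 (17 without WT tunicamycin 3). For LKO against WT after tunicamycin, 83 (30 higher) became 164 (142 higher) with total count scaling, 261 with no filter, 130 with DESeq2, 37, 45 and 7 on FPKM, 28 without that column, and 0 to 183 (0 without WT tunicamycin 1, 183 without WT tunicamycin 2). The interaction had 0, and 0 to 2 with 1 sample left out (2 without WT tunicamycin 3). Total count scaling shifted the median log2 difference of all genes to -0.177 in WT and 0.14 between genotypes after tunicamycin. FPKM fits with the filter hold no values for Eif2ak4, Atf6b and Mbtps2. In each case the cause was not tested.

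Same-numbered samples of different groups did not deviate together: 18 pairs had correlations of -0.118 to 0.141 (median 0.0225), and 3 were over 0.1. With the replicate number as a block, 5 genes were called for tunicamycin in LKO, 0 for genotype with vehicle and 32 for genotype after tunicamycin; among the 10 genes the Eif2ak3 interaction became 0.00125 and Mbtps1 in LKO -0.00892.

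Sign changes concerned small, uncalled values. With total count scaling, Ern1 became -0.0292 in WT, 0.0183 between genotypes after tunicamycin and 0.11 in the interaction; Eif2ak1 -0.12, Eif2ak4 -0.15 and Mbtps1 -0.0689 in WT; Eif2ak4 -0.0207 in LKO; and the interactions of Eif2ak3, Eif2ak4 and Mbtps1 0.10, 0.12 and 0.11. With 14 libraries the interactions of Ern1 and Eif2ak4 were 0.0273 and 0.011, and ignoring strand Eif2ak4 was -0.0061 in WT and 0.0732 in the interaction. On FPKM with a pseudocount of 0.1, Ern1 was -0.073 in LKO and 0.061 between genotypes with vehicle, the Eif2ak3 interaction 0.0779, Eif2ak1 -0.11 and Mbtps1 -0.0323 in WT, and the Mbtps1 interaction 0.14. With a pseudocount of 1 these were -0.0429, 0.0389, 0.0271, -0.0774, -0.0206 and 0.092, with or without the filter, and Atf6b in LKO was -0.024 without it. Without the LKO vehicle 2 column, Eif2ak1 and Mbtps1 in WT were again -0.0774 and -0.0206, the Mbtps1 interaction 0.0802 and Atf6 between genotypes with vehicle 0.00255.

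With 1 sample left out, the ranges that crossed 0 were as follows. For tunicamycin in WT, Eif2ak1 ranged from -0.0163 to 0.21, Eif2ak2 from -0.21 to 0.12, Eif2ak4 from -0.0355 to 0.11 and Mbtps1 from -0.0109 to 0.17. In LKO, Ern1 ranged from -0.0258 to 0.21, Xbp1 from -0.0288 to 0.25, Eif2ak3 from -0.0252 to 0.53, Eif2ak4 from -0.11 to 0.16 and Atf6 from -0.12 to 0.0294. Between genotypes with vehicle, Ern1 ranged from -0.21 to 0.0507, Xbp1 from -0.0475 to 0.24, Eif2ak1 from -0.0235 to 0.0903, Eif2ak2 from -0.16 to 0.0332, Atf6b from -0.17 to 0.37 and Mbtps2 from -0.0419 to 0.48. After tunicamycin, Eif2ak2 ranged from -0.0396 to 0.30. In the interaction, Ern1 ranged from -0.20 to 0.10, Eif2ak3 from -0.22 to 0.34, Eif2ak4 from -0.15 to 0.13 and Mbtps1 from -0.10 to 0.10. Atf6b had 12 to 46 and Eif2ak4 14 to 49 reads per sample; the part of depth in their errors was not tested.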

Other observations

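The fits below average over the other factor and were chosen after the data had been seen. Averaged over the treatments, Eif2ak4 was higher in LKO than in WT by 0.48 ± 0.15 (log2, SE), with all 7 LKO samples above all 6 WT samples and an edgeR adjusted p of 0.0959. Leaving out each sample in turn gave 0 calls in 13 fits (adjusted p 0.0550 to 0.198), while 2.21% of all genes were called in this contrast. Averaged over the genotypes, Xbp1 was higher after tunicamycin by 0.45 ± 0.11, with an edgeR adjusted p of 0.0281, and passed in 8 of the 13 such fits (0.00616 to 0.0899). In that contrast 4.32% of all genes were called, and the average mixes a WT value of 0.76 with an LKO value of 0.13.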
